A study of Mus musculus with 7 samples.

Results

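The adult globin genes of the mouse and the chaperone of alpha-globin were followed in RNA of sorted megakaryocyte progenitors (MkPs), the bone marrow cells committed to the making of platelets. Members are a fixed list of symbols: the alpha-globin copies Hba-a1 and Hba-a2, the beta-globin copies Hbb-bs and Hbb-bt, and Ahsp, the alpha-hemoglobin stabilizing protein. Of these 5 genes, 4 were among the 21615 genes of the count table. The table used here has no row under the symbol Ahsp, so this chaperone was not analysed here. The samples were 3 libraries of CD48-/lo MkPs and 4 libraries of CD48hi MkPs, all from the marrow of wild-type C57BL/6 mice. All were sorted through the same gate (no lineage markers, CD117+ and Sca-1-, with CD150+ and CD41+), within which the surface level of CD48 defined the groups. The groups also differed in the number of sorted cells. The labels give no age for these animals, the study's methods state only a general range of adult ages for its mice, and the labels do not say that libraries came from different mice, so that p-values measure only the spread between these libraries. Replicates are numbered 1, 3 and 4 in CD48-/lo MkPs and 1, 3, 4 and 5 in CD48hi MkPs.

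Hemoglobin is a tetramer of alpha and beta chains, each holding a heme, and is the oxygen carrier of red blood cells. The genes of the alpha and beta chains lie on different chromosomes, and each is present as a pair of adult copies in these mice. Free alpha chains are unstable, and AHSP binds them until they join a beta chain. Globin transcripts accumulate to very high levels in maturing erythroblasts, whereas megakaryocytes, which share a progenitor and several transcription factors such as GATA1 with the red cell lineage, are not a site of hemoglobin production.

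The paired copies are nearly the same in sequence, which limits what a read can tell about each of them. In mm10 (GRCm38), Hba-a1 (ENSMUSG00000069919) spans chr11:32283511-32284465 and Hba-a2 (ENSMUSG00000069917) chr11:32296489-32297298, both on the plus strand. Hbb-bs (ENSMUSG00000052305) spans chr7:103826534-103828096 and Hbb-bt (ENSMUSG00000073940) chr7:103812524-103813996, both on the minus strand. Each main transcript has 3 exons. The coding sequences of the alpha copies, 429 bases each, differed at 1 base, the substitution C381T from Hba-a1 to Hba-a2, and those of the beta copies, 444 bases each, also at 1 base, C417T from Hbb-bs to Hbb-bt, with positions counted from 1 at the A of the start codon. Both substitutions fall on the third base of a codon, codon 127 in the alpha and codon 139 in the beta copies. These 60-base stretches from the GENCODE M21 transcripts are shown because they hold the only coding bases by which a read can tell the copies apart, and the capital marks the base that differs.
Hba-a1 coding bases 352 to 411: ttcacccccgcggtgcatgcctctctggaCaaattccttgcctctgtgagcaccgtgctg
Hba-a2 coding bases 352 to 411: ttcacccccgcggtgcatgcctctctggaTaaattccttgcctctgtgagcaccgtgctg
Hbb-bs coding bases 385 to 444: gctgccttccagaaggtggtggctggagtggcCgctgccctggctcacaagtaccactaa
Hbb-bt coding bases 385 to 444: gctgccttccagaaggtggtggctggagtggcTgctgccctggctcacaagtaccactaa

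The untranslated ends add further differences, and these are fewer in the alpha pair. Of the 50-base words of the main transcript, 50 of 650 (7.7%) matched no transcript of another gene for Hba-a1 and 66 of 505 (13.1%) for Hba-a2, against 198 of 579 (34.2%) for Hbb-bs and 273 of 654 (41.7%) for Hbb-bt. With words of 100 bases the unique shares were 16.7% for Hba-a1, 25.5% for Hba-a2, 37.4% for Hbb-bs and 45.2% for Hbb-bt. For every member, the gene that shared its other words was its own copy. Only uniquely aligned reads were counted, so the deposited level understates the transcript, and by these words more so for alpha-globin. The study's methods give paired-end sequencing, so a pair can be placed by either of its reads and counts are not confined to these stretches. The share of unique words comes from the annotation alone and bears on levels between genes. Whether the share of reads that could be placed was the same in every library was not measured.

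The start-site regions carry the letters of elements described for adult globin promoters. These are CACCC, of a box that KLF1 can bind, a CCAAT box and a TATA-like ATATAA. The 120 bases before the annotated RefSeq start on GRCm38.p6 are shown for the copy of each chain whose main Ensembl transcript starts within 3 bases of it. The last bases of the Hba-a2 window lie past its Ensembl start. The Hbb-bs window lies within the Ensembl gene span given above, which reaches further upstream than the main transcript. Capitals mark the CCAAT box, the CACCC box and the element ATATAA.
Hba-a2, chr11:32296372-32296491, plus strand: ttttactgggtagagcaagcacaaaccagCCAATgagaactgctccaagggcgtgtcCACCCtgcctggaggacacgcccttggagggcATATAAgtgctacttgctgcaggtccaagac
Hbb-bs, chr7:103827929-103828048, minus strand: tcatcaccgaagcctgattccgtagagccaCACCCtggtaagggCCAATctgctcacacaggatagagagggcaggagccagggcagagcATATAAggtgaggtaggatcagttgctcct

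All 4 members held these 3 elements, searched on both strands, in that window. In Hba-a2 the CCAAT began 91 bases, the CACCC 63 bases and the ATATAA 31 bases before the start, and in Hbb-bs the CACCC began 90, the CCAAT 76 and the ATATAA 30 bases before it. The Hba-a1 window matched that of Hba-a2 in all 117 bases compared, shifted by 3, whereas the Hbb-bt window matched that of Hbb-bs in 88 of 119 bases (73.9%). Of 32851 RefSeq mouse promoter windows of the same length, 21.3% held CCAAT, 31.7% CACCC and 4.5% ATATAA, and 94 windows (0.29%) held all 3. GATAA, the core of the GATA motif, was in 10.5% of these windows and in none of the 4 members. These matches are a description of letters in a window, and no binding was measured here.

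Globin RNA was a very small part of these libraries and was more abundant in CD48-/lo MkPs. The 4 genes together took 0.00281%, 0.00181% and 0.00641% of all counts in CD48-/lo replicates 1, 3 and 4, against 0.000339%, 0.000477%, 0.000261% and 0.000412% in CD48hi replicates 1, 3, 4 and 5. In reads, this was 1432, 927 and 3134 counts in CD48-/lo MkPs and 235, 246, 148 and 248 counts in CD48hi MkPs. Each member was higher in all 3 CD48-/lo libraries than in any of the 4 CD48hi libraries, with group means 6.09 to 13.5 times apart in the fitted model. In bulk RNA, more cells that hold globin transcripts and more transcripts per cell cannot be told apart.

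Hba-a1, one of the alpha chain copies, had 10.6, 7.88 and 24.2 CPM (counts relative to the library total, scaled by TMM) in CD48-/lo replicates 1, 3 and 4, against 1.30, 1.71, 0.693 and 0.504 CPM in CD48hi replicates 1, 3, 4 and 5. The groups did not overlap, and the lowest CD48-/lo library was 4.61 times the highest CD48hi library. The mean was 14.2 ± 8.74 CPM in CD48-/lo MkPs (SD, n = 3) and 1.05 ± 0.554 CPM in CD48hi MkPs (SD, n = 4). The log2 difference was 3.76 ± 0.55 (SE) with an adjusted p of 0.0390 in edgeR's quasi-likelihood test over 16653 genes, so that Hba-a1 rose in CD48-/lo MkPs.

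Hba-a2, the other alpha copy, had 5.93, 5.42 and 13.2 CPM in CD48-/lo replicates 1, 3 and 4, against 0.741, 0.901, 0.616 and 0.601 CPM in CD48hi replicates 1, 3, 4 and 5. Its separation was the widest of the 4 members, with the lowest CD48-/lo library at 6.01 times the highest CD48hi library, and its CD48hi libraries lay close together. The mean was 8.20 ± 4.38 CPM in CD48-/lo MkPs (SD, n = 3) and 0.715 ± 0.139 CPM in CD48hi MkPs (SD, n = 4). Hba-a2 also rose, by 3.52 ± 0.46 (SE) on the log2 scale, with an adjusted p of 0.0220 (edgeR).

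Hbb-bs, one of the beta chain copies, had 6.69, 2.52 and 17.2 CPM in CD48-/lo replicates 1, 3 and 4, against 0.818, 1.40, 0.867 and 1.77 CPM in CD48hi replicates 1, 3, 4 and 5. CD48-/lo replicate 3 stood only 1.42 times above CD48hi replicate 5, and the 95% Poisson intervals of these 2 libraries overlapped. With means of 8.82 ± 7.59 CPM in CD48-/lo MkPs (SD, n = 3) and 1.21 ± 0.455 CPM in CD48hi MkPs (SD, n = 4), the log2 difference was 2.86 ± 0.61 (SE). Its adjusted p of 0.0866 (edgeR) did not pass the threshold of 0.05.

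Hbb-bt, the other beta copy, had 3.73, 1.87 and 8.67 CPM in CD48-/lo replicates 1, 3 and 4, against 0.771, 0.515, 0.674 and 1.15 CPM in CD48hi replicates 1, 3, 4 and 5. It showed the same order of CD48-/lo libraries as its copy, and the lowest of them was 1.62 times the highest CD48hi library. The mean was 4.76 ± 3.52 CPM in CD48-/lo MkPs (SD, n = 3) and 0.778 ± 0.271 CPM in CD48hi MkPs (SD, n = 4). The log2 difference of 2.61 ± 0.59 (SE) had an adjusted p of 0.0995 (edgeR) and did not pass.

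**Figure D1:**
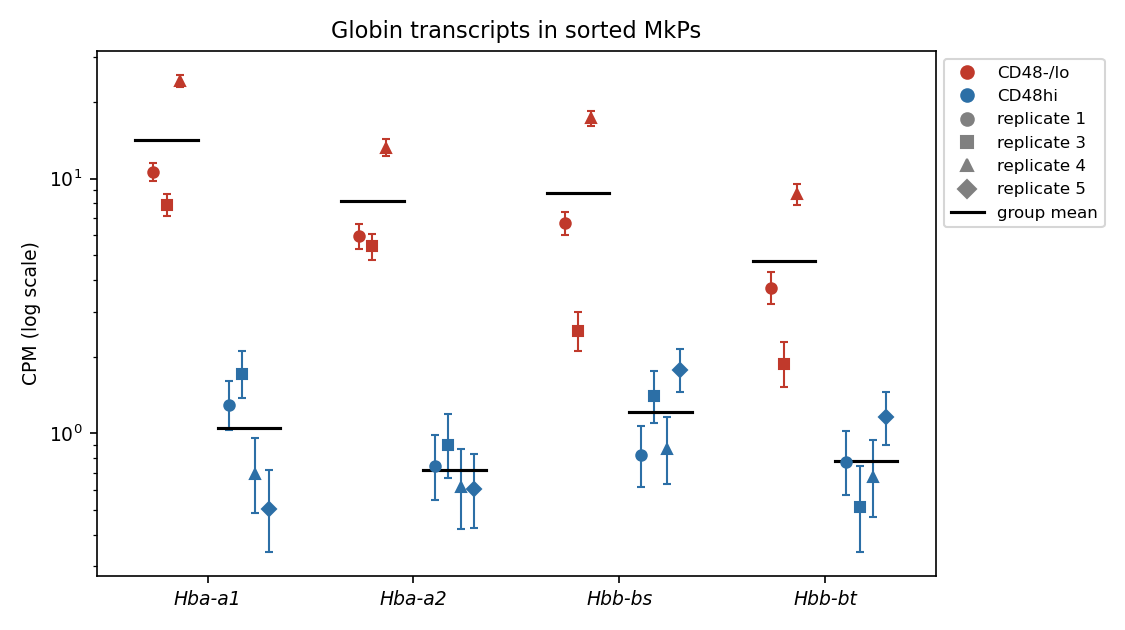
CPM (log axis) of each globin gene in the 3 CD48-/lo libraries (red, left) and the 4 CD48hi libraries (blue, right), with 95% Poisson intervals of the counts as bars and group means as lines. CD48-/lo replicate 4 (triangle) is the highest library for every gene, up to 24.2 CPM for Hba-a1, and every CD48-/lo point lies above the CD48hi points of its gene.

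Thus 2 of the 4 members were called higher in CD48-/lo MkPs, both of them alpha copies, where 0.0841% of all tested genes were called higher. All 4 had groups that did not overlap with CD48-/lo above, where 7.52% of all tested genes did. DESeq2 on the same counts called all 4 members higher, where it called 2.47% of genes higher, with adjusted p of 5.77e-09 for Hba-a1, 2.39e-10 for Hba-a2, 0.000528 for Hbb-bs and 0.00229 for Hbb-bt. Every member had at least 28 counts in every library and passed the filter on low counts in both groups, so none was tested only because it was high in CD48-/lo MkPs. Among the 16653 tested genes, Hba-a2 had the 8th and Hba-a1 the 15th smallest p.

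The alpha calls depended on which libraries were in the fit. Without CD48-/lo replicate 4, which had the most globin RNA, the log2 difference was 3.13 for Hba-a1 (adjusted p = 0.136, edgeR) and 2.98 for Hba-a2 (adjusted p = 0.108, edgeR). The call of Hba-a1 was also lost without CD48-/lo replicate 1 (adjusted p = 0.0602) and without CD48hi replicate 1 (0.0746), 3 (0.0710), 4 (0.0708) or 5 (0.0837). That of Hba-a2 was lost without CD48hi replicate 1 (adjusted p = 0.0621), 3 (0.0662), 4 (0.0513) or 5 (0.0732). Both stayed called without CD48-/lo replicate 3, where Hbb-bs was called too, at a log2 difference of 3.17 (adjusted p = 0.0436, edgeR). In the beta copies the difference was smallest without CD48-/lo replicate 4, at 1.92 for Hbb-bs (adjusted p = 0.355) and 1.84 for Hbb-bt (adjusted p = 0.441).

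**Figure D2:**
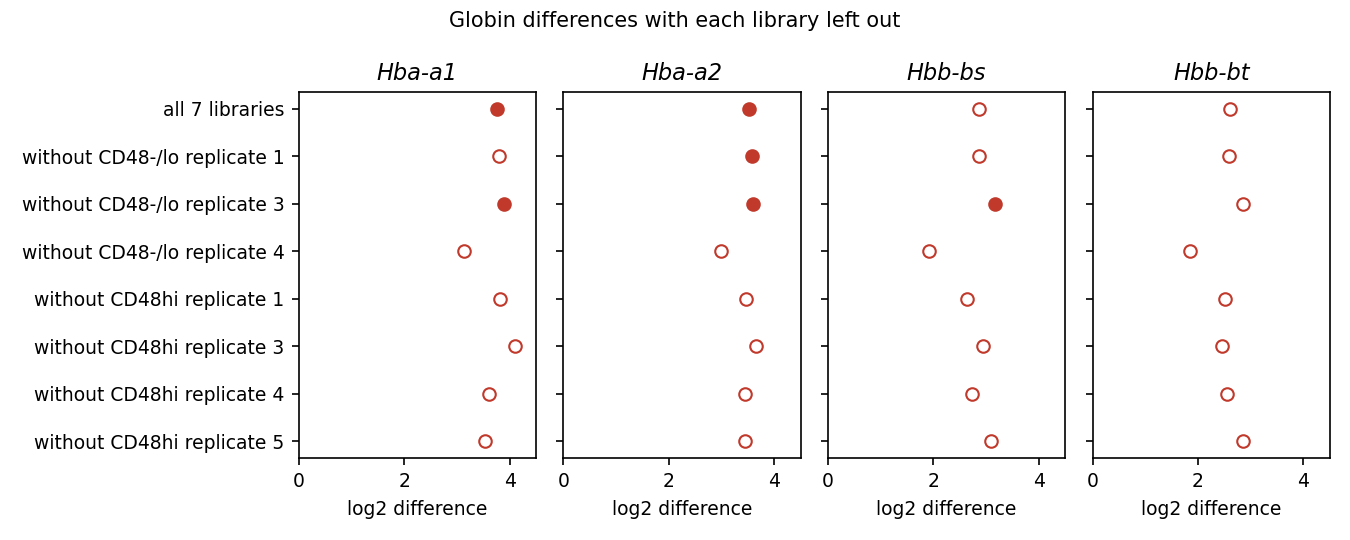
Log2 difference, CD48-/lo over CD48hi, of each globin gene with all 7 libraries and with each library left out in turn, filled where the adjusted p is under 0.05 (edgeR). All values are above 0 and the lowest of each gene, 3.13 for Hba-a1 and 1.84 for Hbb-bt, for example, comes without CD48-/lo replicate 4.

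Since reads cannot always be placed between near-identical copies, the counts of each pair were also added into a single row before the fit. The alpha copies together averaged 22.4 ± 13.1 CPM in CD48-/lo MkPs (SD, n = 3) and 1.77 ± 0.691 CPM in CD48hi MkPs (SD, n = 4). Their log2 difference was 3.67 ± 0.47 (SE) with an adjusted p of 0.0220 (edgeR). The beta copies together averaged 13.6 ± 11.1 CPM in CD48-/lo MkPs (SD, n = 3) and 1.99 ± 0.643 CPM in CD48hi MkPs (SD, n = 4), and differed by 2.77 ± 0.55 (SE) on the log2 scale (adjusted p = 0.0783, edgeR). Alpha-globin thus passed and beta-globin did not, as in the separate rows, and whether the alpha and beta differences differ from each other was not tested.

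The members also varied within CD48-/lo MkPs. The coefficient of variation over the 3 CD48-/lo libraries was 61.4% for Hba-a1, 53.4% for Hba-a2, 86.1% for Hbb-bs and 73.9% for Hbb-bt. Counting alone would give 2.9% to 10.1% in a single library if reads were independent molecules. In CD48hi MkPs the coefficient was 52.8%, 19.5%, 37.5% and 34.9% for the same genes. There, counting would give 9.6% to 18.9% in a single library under the same assumption. For all 4 genes the order in CD48-/lo MkPs was replicate 4, then 1, then 3. The correlation of log2 CPM between members over the 7 libraries was from 0.900 to 0.990, highest between the alpha copies. These libraries share the group difference, so the correlations describe it as well.

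The balance of chains was not the same in every library. Alpha-globin made up 61.4% of globin counts in CD48-/lo replicate 1 (95% Clopper-Pearson interval 58.8% to 63.9%), 75.2% in replicate 3 (72.3% to 77.9%) and 59.1% in replicate 4 (57.3% to 60.8%). In CD48hi replicates it was 56.2% in replicate 1 (49.6% to 62.6%), 57.7% in replicate 3 (51.3% to 64.0%), 45.9% in replicate 4 (37.7% to 54.3%) and 27.4% in replicate 5 (22.0% to 33.4%). The mean was 65.2% ± 8.71 in CD48-/lo MkPs (SD, n = 3) and 46.8% ± 13.9 in CD48hi MkPs (SD, n = 4). Every CD48-/lo library lay above every CD48hi library, but by less than the counting intervals between CD48-/lo replicate 4 and CD48hi replicate 3. These intervals cover counting error only. They also treat reads as independent molecules, which amplified cDNA reads are not, so they can be too narrow. The library with the lowest alpha share, CD48hi replicate 5, was also the CD48hi library with the most beta-globin.

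The share of each copy within its pair overlapped between the groups. Hba-a1 held 64.2%, 59.3% and 64.6% of alpha counts in CD48-/lo replicates 1, 3 and 4, against 63.6%, 65.5%, 52.9% and 45.6% in CD48hi replicates 1, 3, 4 and 5. Hbb-bs held 64.2%, 57.4% and 66.5% of beta counts in CD48-/lo replicates 1, 3 and 4, against 51.5%, 73.1%, 56.3% and 60.6% in CD48hi replicates 1, 3, 4 and 5. The CD48-/lo means of 62.7% ± 2.98 for Hba-a1 and 62.7% ± 4.75 for Hbb-bs (SD, n = 3) lay within 1 SD of the CD48hi means of 56.9% ± 9.36 and 60.3% ± 9.27 (SD, n = 4). These shares are of uniquely placed reads, and as the unique stretch is not the same length in each copy they are not shares of transcripts.

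**Figure D3:**
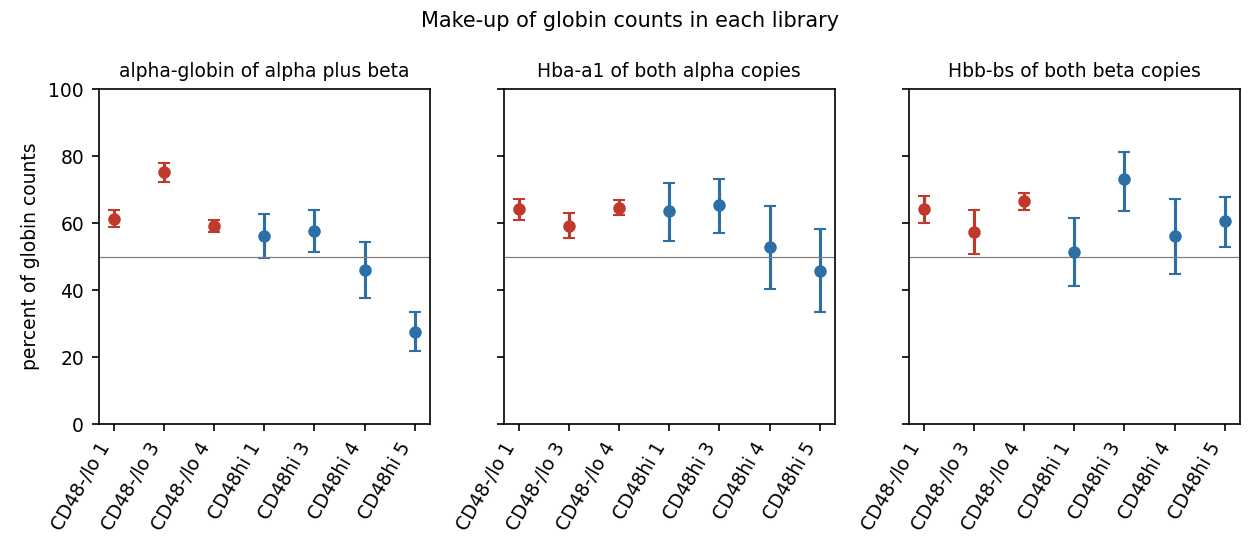
Percent of globin counts in each library (CD48-/lo red, left, and CD48hi blue, right) that were alpha-globin, and percent of alpha counts from Hba-a1 and of beta counts from Hbb-bs, with 95% Clopper-Pearson intervals and a line at 50%. The alpha share is highest in CD48-/lo replicate 3 (75.2%) and lowest in CD48hi replicate 5 (27.4%), while the copy shares overlap between the groups.

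Per kilobase of the deposited gene length, the CD48-/lo levels were 17.5 ± 10.8 CPM for Hba-a1, 12.3 ± 6.56 for Hba-a2, 11.5 ± 9.89 for Hbb-bs and 6.77 ± 5.00 for Hbb-bt (SD, n = 3). In CD48hi MkPs they were 1.29 ± 0.683, 1.07 ± 0.208, 1.58 ± 0.593 and 1.11 ± 0.386 CPM per kilobase in the same order of genes (SD, n = 4). Neighbours in the order of means lay within their spread over libraries. Within each of the 3 CD48-/lo libraries, Hba-a1 had the highest and Hbb-bt the lowest level per kilobase, whereas the 4 CD48hi libraries did not all have the same order. As the unique stretch of each copy is not proportional to its length, these are levels of uniquely placed reads.

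The other globin genes had few counts or no row in this table. Of 11 embryonic, theta and non-erythroid globin genes looked for, only Cygb, the cytoglobin of many tissues, had a row, with 0 counts in CD48-/lo MkPs and 31 counts in CD48hi MkPs, all of them in replicate 3. The only further hemoglobin row, the pseudogene Hba-ps4, had 4, 7 and 0 counts in CD48-/lo replicates 1, 3 and 4 and 0, 0, 8 and 4 counts in CD48hi replicates 1, 3, 4 and 5. Neither passed the filter on low counts.

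None of the genes next to the alpha-globin locus was called. Of 5 neighbours tested, 3 had higher and 2 had lower values in CD48-/lo MkPs, none passed in edgeR or DESeq2 and none had an unadjusted p under 0.05 in edgeR, with a median log2 difference of 0.16 beside 0.03 for all tested genes. Nprl3, whose introns hold the distal enhancers of the alpha-globin genes, had 17.0 ± 4.97 CPM in CD48-/lo MkPs (SD, n = 3) and 24.1 ± 9.56 CPM in CD48hi MkPs (SD, n = 4), with an adjusted p of 0.495 (edgeR). Snrnp25, a spliceosome protein gene, had 49.1 ± 5.94 CPM in CD48-/lo MkPs and 27.1 ± 14.4 CPM in CD48hi MkPs (adjusted p = 0.297, edgeR).

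Regulators of globin transcription ranged widely in mean level. In CD48-/lo MkPs they ran from 8.26 CPM for Bach1 to 538 CPM for Nfe2, and in CD48hi MkPs from 3.66 to 919 CPM for the same genes. Of the 20 regulators none passed in edgeR, where 9 had higher and 11 had lower values in CD48-/lo MkPs. Their median log2 difference was -0.31. An unadjusted p under 0.05 (edgeR) was reached by 2 that were higher and 6 that were lower, beside 2871 of the 16653 tested genes. DESeq2 called 1 higher and 4 lower. GATA1, the master activator of erythroid and megakaryocytic genes, was encoded at 181 ± 53.7 CPM in CD48-/lo MkPs (SD, n = 3) and 146 ± 30.1 CPM in CD48hi MkPs (SD, n = 4), with an adjusted p of 0.609 (edgeR) for Gata1. Klf1 encodes an activator described as binding CACCC boxes of adult globin promoters. Klf1 had 46.6, 98.2 and 81.8 CPM in CD48-/lo replicates 1, 3 and 4, against 166, 84.1, 91.5 and 152 CPM in CD48hi replicates 1, 3, 4 and 5. Its groups overlapped and its log2 difference of -0.71 ± 0.36 (SE) did not pass (adjusted p = 0.337, edgeR).

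Of the regulators with the smallest p, Klf3, which encodes a repressor related to KLF1, had 9.31 ± 1.61 CPM in CD48-/lo MkPs and 3.89 ± 1.25 CPM in CD48hi MkPs (adjusted p = 0.175, edgeR). Zbtb7a, the gene of a repressor of fetal globin in humans, had 16.6 ± 4.46 CPM in CD48-/lo MkPs and 37.0 ± 11.5 CPM in CD48hi MkPs (adjusted p = 0.180, edgeR). Tcf3, the gene of a partner of TAL1, had 31.0 ± 2.80 CPM in CD48-/lo MkPs and 59.6 ± 12.5 CPM in CD48hi MkPs (adjusted p = 0.180, edgeR). Klf3 was higher in every CD48-/lo library than in any CD48hi library, and Zbtb7a and Tcf3 were lower in every one. Gata2, expressed in progenitors before GATA1 takes over, had 205.8, 206.9 and 145 CPM in CD48-/lo replicates 1, 3 and 4, against 221, 313, 688 and 633 CPM in CD48hi replicates 1, 3, 4 and 5 (adjusted p = 0.189, edgeR). Bach1, whose product represses globin genes when heme is short, had 8.26 ± 3.10 CPM in CD48-/lo MkPs and 3.66 ± 0.497 CPM in CD48hi MkPs with no overlap (adjusted p = 0.195, edgeR). Zfpm1, the gene of the GATA1 cofactor FOG1, had 17.5 ± 3.99 CPM in CD48-/lo MkPs and 45.0 ± 26.2 CPM in CD48hi MkPs (adjusted p = 0.198, edgeR). Nfe2, the most abundant regulator of the list, had 538 ± 98.2 CPM in CD48-/lo MkPs and 919 ± 264 CPM in CD48hi MkPs, with groups that overlapped (adjusted p = 0.248, edgeR). Bcl11a, which encodes another main fetal globin repressor, had 70.1 ± 12.8 CPM in CD48-/lo MkPs and 110.8 ± 21.8 CPM in CD48hi MkPs (adjusted p = 0.268, edgeR). DESeq2 called Klf3 higher and Gata2, Tcf3, Zfpm1 and Zbtb7a lower in CD48-/lo MkPs.

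No gene that keeps globin and heme in balance was called either. Of 5 genes acting on globin protein, 1 had a higher and 4 had a lower value in CD48-/lo MkPs, with a median log2 difference of -0.38 and none with an unadjusted p under 0.05 in edgeR or a call in DESeq2. Eif2ak1, the kinase that slows globin translation when heme is short, had 104 ± 19.5 CPM in CD48-/lo MkPs and 151 ± 61.8 CPM in CD48hi MkPs (adjusted p = 0.419, edgeR). Of 14 genes of heme synthesis and transport, 5 had higher and 9 had lower values in CD48-/lo MkPs, with a median of -0.20. None was called by edgeR or DESeq2. An unadjusted p under 0.05 in edgeR was reached by 3, all higher, beside 2871 of the 16653 tested genes.

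Alas2, the erythroid enzyme for the initial step of heme synthesis, stood apart within that list. It had 0.659, 0.191 and 0.364 CPM in CD48-/lo replicates 1, 3 and 4, 63 counts in all, against 2 counts in all of CD48hi MkPs, both in replicate 5. With so few counts the adjusted p was 0.103 (edgeR). Its housekeeping counterpart Alas1 had 52.6 ± 14.3 CPM in CD48-/lo MkPs and 68.4 ± 12.9 CPM in CD48hi MkPs (adjusted p = 0.518, edgeR). Uros, which encodes a later enzyme of the pathway, had 46.3 ± 4.98 CPM in CD48-/lo MkPs and 23.4 ± 7.48 CPM in CD48hi MkPs, with groups that did not overlap (adjusted p = 0.189, edgeR).

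Of the markers of terminal erythroid cells, edgeR called 1, higher in CD48-/lo MkPs like the alpha-globins. Of 22 tested, 17 had higher and 5 had lower values in CD48-/lo MkPs, with a median log2 difference of 1.15 beside 0.03 for all tested genes. In edgeR, 12 that were higher and 1 that was lower had an unadjusted p under 0.05, beside 2871 of the 16653 tested genes. Without overlap between groups, 8 were higher (7.52% of all tested genes). Trim58, a ubiquitin ligase gene of late erythroblasts, was lower with no overlap, at 6.09 ± 1.25 CPM in CD48-/lo MkPs and 12.1 ± 5.37 CPM in CD48hi MkPs (adjusted p = 0.249, edgeR). The marker called by edgeR was Rhd (0.0841% of all genes were called higher), and DESeq2 called 6 higher (2.47% of all genes). Their summed level was 514.8 to 667.8 CPM in CD48-/lo MkPs and 371.9 to 473.6 CPM in CD48hi MkPs. Of this sum Fech, the enzyme that puts iron into heme, alone gave 177 ± 15.8 CPM in CD48-/lo MkPs and 206 ± 58.4 CPM in CD48hi MkPs. Rhd, the D antigen of the Rh blood group, had 21.2, 16.5 and 53.6 CPM in CD48-/lo replicates 1, 3 and 4, against 2.14, 2.30, 1.68 and 2.96 CPM in CD48hi replicates 1, 3, 4 and 5, and its log2 difference was 3.74 ± 0.45 (SE; adjusted p = 0.0220, edgeR). Rhag, its partner in the membrane, had 33.6 ± 14.4 CPM in CD48-/lo MkPs and 4.19 ± 2.84 CPM in CD48hi MkPs (adjusted p = 0.0690, edgeR).

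A defining transcript of the mature red cell membrane was low in both groups. Slc4a1, the anion exchanger band 3, had 0.490, 0.0954 and 1.72 CPM in CD48-/lo replicates 1, 3 and 4, against 0.463, 0, 0.193 and 0.520 CPM in CD48hi replicates 1, 3, 4 and 5, with groups that overlapped (adjusted p = 0.585, edgeR). The part of erythroid cells within the gate in the globin difference was not tested.

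**Figure D4:**
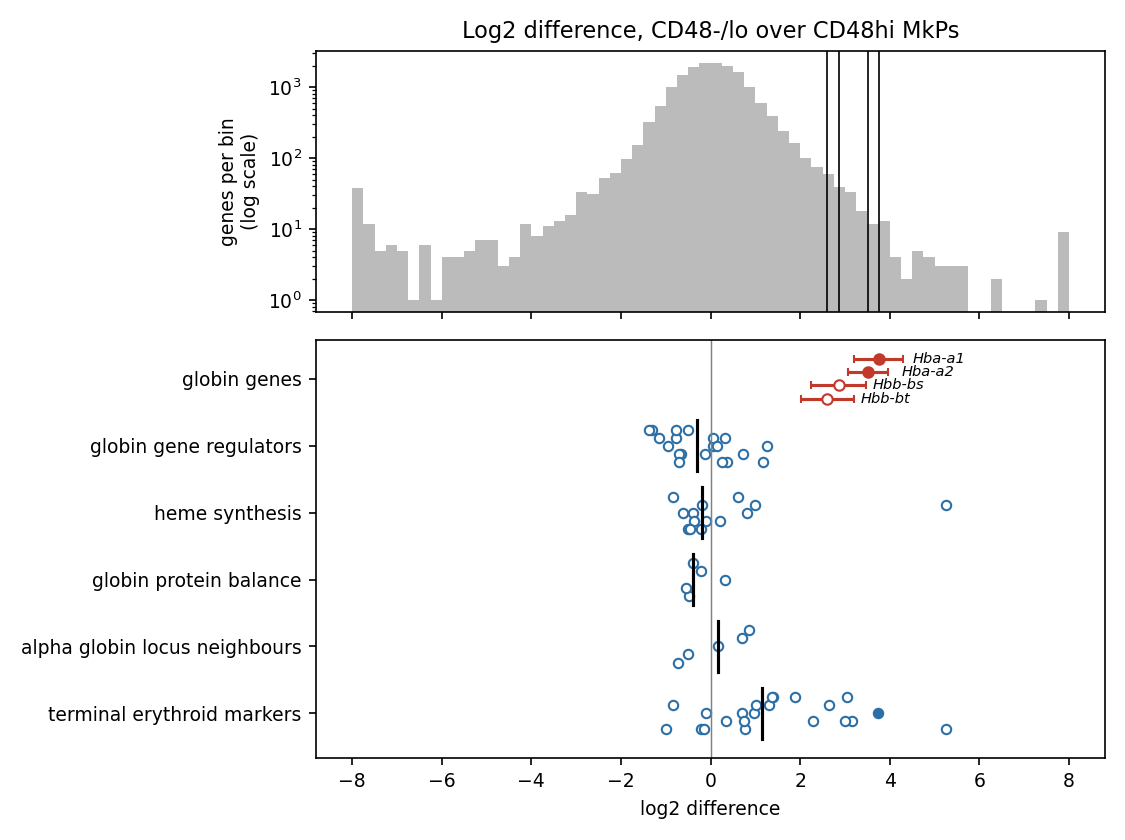
Top, number of tested genes (log axis) by log2 difference, CD48-/lo over CD48hi, with values beyond 8 in either direction drawn in the outermost bins and vertical lines at the 4 globin genes. Bottom, the globin genes with SE bars (red) and the genes of 5 lists (blue), filled where the adjusted p is under 0.05 (edgeR), with the list median as a bar: 1.15 for terminal erythroid markers and -0.31 for globin gene regulators, for example.

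Genes of other cell types and a measure of RNA make-up also moved with the libraries. CD48-/lo replicates 1 and 4, the libraries with the most globin, had 2.54% and 2.83% of counts in 13 mitochondrially encoded genes, against 0.469% in CD48-/lo replicate 3 and 0.134% to 0.385% in CD48hi MkPs. Summed neutrophil markers (10 of 11 had a row and 7 were tested) were 23.8, 0.744 and 14.9 CPM in CD48-/lo replicates 1, 3 and 4 and 4.52 to 6.93 CPM in CD48hi MkPs. Among them S100a8, an abundant granule protein gene of neutrophils, had 14.2, 0.343 and 11.1 CPM in CD48-/lo replicates 1, 3 and 4. In CD48hi replicates 1, 3, 4 and 5 it had 1.85, 1.82, 0.616 and 0.569 CPM, so that the groups overlapped (adjusted p = 0.204, edgeR). Ltf and Lcn2 had 0 counts in all 3 CD48-/lo libraries. Other neutrophil genes ran the opposite way with no overlap between groups, Mmp8 at 0.0597 ± 0.0733 CPM in CD48-/lo MkPs and 1.13 ± 0.307 CPM in CD48hi MkPs, and Chil3 at 0.114 ± 0.198 CPM in CD48-/lo MkPs and 1.41 ± 0.974 CPM in CD48hi MkPs. Neither was called by edgeR (adjusted p = 0.138 and 0.255). Of the neutrophil markers, DESeq2 called Mmp8 lower and S100a8 higher (adjusted p = 0.00138 and 0.0306, DESeq2). The sums of 6 B and plasma cell markers with a row were 14.5 to 37.0 CPM in CD48-/lo MkPs and 18.6 to 24.9 CPM in CD48hi MkPs, and those of 11 macrophage markers with a row 43.2 to 48.0 CPM in CD48-/lo MkPs and 31.1 to 43.9 CPM in CD48hi MkPs. Cd79b, a B cell receptor component, made up most of the B and plasma cell sum, with 34.4, 13.5 and 34.8 CPM in CD48-/lo replicates 1, 3 and 4 and 9.10 to 15.5 CPM in CD48hi MkPs. The immunoglobulin genes Igkc (11 counts in CD48-/lo MkPs and 373 in CD48hi MkPs), Ighm (203 and 1367 counts) and Jchain (0 and 462 counts) had lower levels in CD48-/lo MkPs and were called lower by DESeq2, but not by edgeR (adjusted p = 0.257, 0.0808 and 0.124). CD48-/lo replicate 3 had the lowest neutrophil and mitochondrial values of its group and also the least of each globin in that group. It had 7.88 CPM of Hba-a1 and 2.52 CPM of Hbb-bs, against at most 1.71 and 1.77 CPM in CD48hi MkPs. The part of other cell types or of RNA make-up in the globin difference was not tested. With CD48-/lo replicates 1 and 4 left out together, an alternative chosen after seeing the data, the log2 differences were 2.86 for Hba-a1, 2.87 for Hba-a2, 1.00 for Hbb-bs and 1.19 for Hbb-bt. None was then called by edgeR (adjusted p = 0.358 for Hba-a1 and 0.306 for Hba-a2), and 2 of the 4 had an unadjusted p under 0.05, in a fit where the remaining CD48-/lo library is assumed to vary like the CD48hi libraries.

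Genes of the positive markers of the gate were expressed in both groups, while the gene of Sca-1 is not reported here. Kit, the gene of CD117, had 383 ± 52.3 CPM in CD48-/lo MkPs and 378 ± 157 CPM in CD48hi MkPs. Slamf1, the gene of CD150, had 29.3 ± 9.33 CPM in CD48-/lo MkPs and 19.9 ± 7.59 CPM in CD48hi MkPs. Itga2b, the gene of CD41, had 843 ± 85.9 CPM in CD48-/lo MkPs and 1372 ± 454 CPM in CD48hi MkPs, and Pf4, a platelet granule chemokine, had 2960 ± 1273 CPM in CD48-/lo MkPs and 1478 ± 762 CPM in CD48hi MkPs. Cd48 itself had 14.0, 4.98 and 11.4 CPM in CD48-/lo replicates 1, 3 and 4, against 15.8, 43.0, 23.6 and 33.3 CPM in CD48hi replicates 1, 3, 4 and 5, so that the groups followed their labels without overlap (adjusted p = 0.181, edgeR). None of the 8 MkP markers was called by edgeR, and DESeq2 called 1. An unadjusted p under 0.05 (edgeR) was reached by 3 that were higher and 2 that were lower, beside 2871 of the 16653 tested genes. The sort gave 5348 to 6497 cells per CD48-/lo library and 14033 to 20826 per CD48hi library, so cell number and group cannot be told apart, while total counts were 48899037 to 51161449 in CD48-/lo MkPs and 51537445 to 69324909 in CD48hi MkPs.

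Over the 7 libraries, the 5 genes whose pattern was most like the mean of the globins were Rhd (r = 0.990), Ackr1 (r = 0.989), Kat5 (r = 0.985), Ube2q1 (r = 0.980) and Cldn13 (r = 0.979), as Pearson correlations of log2(CPM + 0.5) among the 13217 genes that averaged 1 CPM or more. All 5 were highest in CD48-/lo replicate 4. Ackr1, the chemokine receptor that forms the Duffy blood group in humans, had 6.55, 3.43 and 8.80 CPM in CD48-/lo replicates 1, 3 and 4 and 1.23 to 1.36 CPM in CD48hi MkPs. Cldn13, a claudin gene, had 13.5, 8.53 and 27.1 CPM in CD48-/lo replicates 1, 3 and 4 and 0.216 to 0.515 CPM in CD48hi MkPs. Kat5, a histone acetyltransferase gene, had a smaller log2 difference (0.43 against 2.27 for Ackr1), at 41.2, 41.3 and 49.8 CPM in CD48-/lo replicates 1, 3 and 4 and 30.9 to 33.8 CPM in CD48hi MkPs. The likeness is one of pattern and says nothing of size, and the correlation includes the difference between the groups.

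**Figure D5:**
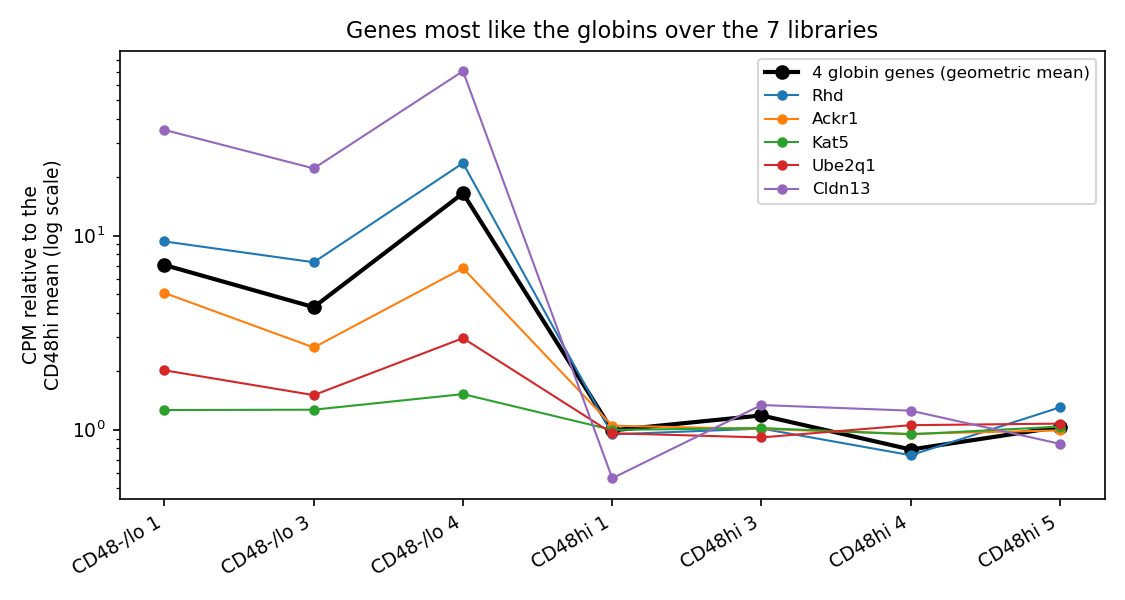
CPM relative to the CD48hi mean (log axis) in the 3 CD48-/lo libraries (left) and the 4 CD48hi libraries (right) for the geometric mean of the 4 globin genes (black) and the 5 genes of most similar pattern (colours). All 6 lines peak in CD48-/lo replicate 4, with Cldn13 the most and Kat5 the least above the CD48hi level.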

How the data were processed

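RNA of sorted MkPs was primed on poly(A) tails, copied by template switching, amplified and tagmented. The study's methods and the submitters' processing notes give FastQC for read quality, alignment by GSNAP to mm10 with splice sites of Ensembl 98, and featureCounts (2.0.1) for the counting, by the authors, of reads with a unique alignment. Raw counts were deposited as whole numbers with no normalization, and no row sums to under 11 counts. Gene length was taken from the deposited table. Neither read length nor strand setting is given in the sources used here. Reads of antisense or overlapping genes therefore cannot be told apart, and the word lengths of 50 and 100 bases are illustrative. Other deposited tables (values scaled or derived by the authors, among them fold changes and p-values from their own comparison with DESeq2 1.30.1 in R 3.5.1) were not used.

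Counts were analysed in R 4.3.3 with edgeR 4.0.16: filterByExpr (16653 genes, 99.95% of counts), TMM, and the quasi-likelihood F test (CD48-/lo over CD48hi, without covariates), Benjamini-Hochberg adjustment over all tested genes and a threshold of 0.05. The log2 difference has a prior count of 0.125. In all, 32 genes passed, 14 higher and 18 lower in CD48-/lo MkPs. DESeq2 1.42.0 and limma 3.58.1 (voom) were alternatives, beside other scalings, filters, thinned counts and left-out libraries. The scripts were tested on simulated data. Members and lists were chosen with earlier results of these data known. Named genes are the members, the 5 most similar in pattern, and up to 4 genes per list by smallest adjusted p. Genes whose role is explained and Nfe2 are named as well. Sequences were matched by symbol for all 4 members. Values of some single genes of the marker lists are not reported here.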

Additional observations from a re-analysis of the deposited data

How the results depend on the processing

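No globin difference changed sign under any alternative. In edgeR with other scalings, a stricter filter, thinned counts, mitochondrial genes left out or a prior count of 2, and in voom, the same count of 2 members was called. Without a filter only Hba-a2 was called (3.50, adjusted p = 0.0382), 1 member in all, while Hba-a1 was not (3.75, adjusted p = 0.0676), and with DESeq2 or a threshold of 0.1 all 4 were (Hbb-bs 2.80 and Hbb-bt 2.54 in DESeq2, 2.86 and 2.61 at the threshold of 0.1). With each library left out in turn, the log2 difference ranged from 3.13 to 4.09 for Hba-a1 and from 2.98 to 3.65 for Hba-a2. It ranged from 1.92 to 3.17 for Hbb-bs and from 1.84 to 2.86 for Hbb-bt, and 0 to 3 members were called (edgeR). All 4 had an unadjusted p under 0.05 in each of these fits, where 1568 to 3875 of all tested genes did. Without CD48-/lo replicates 1 and 4, Hba-a1 was 2.86, Hba-a2 was 2.87 and 0 members were called (edgeR, 2 at an unadjusted p under 0.05). Genes called over all tested numbered 32, and 57 with RLE size factors, 10 without a filter, 64 with a stricter one, 918 with DESeq2, 393 with voom, 52 with thinned counts, 187 at the threshold of 0.1, 1 to 72 with a library left out, and 0 without CD48-/lo replicates 1 and 4 (1021 at an unadjusted p under 0.05). The causes were not tested. No alternative gave a value for Ahsp.

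Replicate numbers are shared between groups, but same-numbered libraries did not deviate together (r = -0.152, -0.265 and -0.0860 for numbers 1, 3 and 4), and no library correlated best with its own number. With the replicate number as a block, Hba-a1 was 3.41 (adjusted p = 0.0826, edgeR) and Hba-a2 3.32 (adjusted p = 0.0846, edgeR). In that fit 0 members and 16 genes were called. All 4 members had an unadjusted p under 0.05, beside 1261 of all tested genes.

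In CD48hi MkPs the members had 28 to 109 counts per library, which limits the copy and chain shares there.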
